A study of Mus musculus with 12 samples.

Results

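Immediate early genes are a small set of genes whose transcription starts within minutes of a stimulus, without waiting for new protein to be made. Serum, growth factors, calcium entry, synaptic activity and the handling of tissue all switch them on. The kinases ERK, JNK and p38 carry the signal to factors already sitting at the promoters, such as SRF with its ELK partners and CREB, and the transcripts are then destroyed within a short time. In brain they are used as a readout of recent neuronal activity, and in dissociated or cultured cells they are a known part of the response to being taken out of tissue or fed with serum.

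Of 55862 genes in the deposited table, 10 were chosen by name: Fos, Fosb, Jun, Junb, Egr1, Ier2, Atf3, Nr4a1, Arc and Dusp1. All 10 were found. The 12 samples came from mouse brain and formed 4 groups of 3. Their labels give the strain C57BL/6 throughout, while the methods of the study name C57BL/6J for both NPC groups. The AST group held primary astrocytes from the cortex of mice at postnatal days 1 to 2, grown in a layer with fetal bovine serum, passaged with trypsin and taken at day 0 of sphere culture. A-iSCs were the same kind of cells after 5 days as floating spheres on agarose. P56-NPCs were neural precursor preparations made by dissociating the subependymal zone of adult mice (postnatal day 56), and P0-NPCs came from hippocampus dissociated at postnatal day 0. No sort for precursor cells was stated for the NPC groups, and which cells the preparation kept was checked here only through marker genes. The P56-NPC suspension had been strained, centrifuged and taken up in warmed culture medium. The P0-NPC suspension was made with trypsin and centrifuged. The 2 cultured groups and the 2 freshly dissociated groups also differed in brain region, age, cell composition and perhaps substrain, and these cannot be told apart. Nothing in the labels ties the 3 samples of a group to separate animals or cultures, so a p-value measures only the spread between these samples.

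The values were FPKM, the fragments of a gene corrected for its length and for the size of the library, and had been brought to a common scale between samples. Libraries held 17077780 to 24452419 fragments counted on genes. The thinnest value among the 10 genes rested on 43 fragments (Arc in AST replicate 1), and the 3 Arc values in ASTs (43, 52 and 48 fragments) and Fosb in P0-NPC replicate 2 (50 fragments) were the sparsest. All 10 genes passed the filter of a mean of at least 1 FPKM in at least 1 compared group in each comparison. Differences were tested with limma on log2(FPKM + 1) over all genes that passed, and a call needed p under 0.05 after Benjamini-Hochberg adjustment. Values called log2 fold changes, and values with a standard error, are differences on this log2(FPKM + 1) scale, which understates the change of low genes. Values written as N-fold are ratios of the mean FPKM of the groups with nothing added, so that for low genes such as Arc they exceed what the log2 fold change beside them gives.

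The labelled cell types were checked against marker genes. Summed astrocyte markers were lowest in the ASTs, at 113 to 129 FPKM. They were at 1134 to 2384 FPKM in A-iSCs, 2320 to 2532 FPKM in P56-NPCs and 223 to 286 FPKM in P0-NPCs. Of the 6 markers, 5 were called higher than in ASTs in A-iSCs and 6 in P56-NPCs. In P0-NPCs they were split, with 4 higher and 2 lower than in ASTs. Of the neural stem and progenitor markers, which bear on the label of the NPC groups, Nes was at 3.76 FPKM in P56-NPCs and 26.9 FPKM in P0-NPCs and at 196 FPKM in ASTs, and Sox2 was at 107 and 84.5 FPKM against 135 FPKM in ASTs. The Nes values go against the NPC label, and Sox2 was called lower than in ASTs in P0-NPCs and not called in P56-NPCs. Dcx (3.34 and 88.1 FPKM) and Hes5 (19.8 and 15.9 FPKM) go the other way. Both were under 1 FPKM in ASTs, and both were called higher in P0-NPCs than in ASTs. Not all 6 markers of this list are given. ASTs had the highest summed mural and fibroblast markers (1875 to 2271 FPKM, with 102 FPKM at most elsewhere) and the highest cycling markers. The mural and fibroblast list was split, with Rgs5 and Dcn under 1 FPKM in ASTs. Against ASTs, 2 of its 6 genes were called higher and 4 lower in P56-NPCs, and 2 higher and 3 lower in P0-NPCs. In A-iSCs all 4 tested were lower. P56-NPCs carried 10825 to 12337 FPKM of oligodendrocyte markers, with all 6 of them above 1 FPKM, while no other sample exceeded 75.9 FPKM. Microglia markers summed to 383 to 444 FPKM in A-iSCs and 418 to 439 FPKM in P56-NPCs, against 44.7 to 73.0 FPKM in ASTs and P0-NPCs. P0-NPCs had the highest endothelial markers (72.8 to 74.8 FPKM) and the highest sum of neuron markers (761 to 937 FPKM, against 195 to 238 FPKM in P56-NPCs). The neuron sum rested on Tubb3 (634 FPKM) and Stmn2 (109 FPKM), which young neurons express strongly, and the 6 neuron markers did not go 1 way. Tubb3, Stmn2 and Rbfox3 were called higher in P0-NPCs, Snap25 (33.7 against 14.9 FPKM) and Map2 (71.1 against 41.7 FPKM) were called higher in P56-NPCs, and Syt1 was not called. In bulk RNA, more cells of a type and more RNA per cell cannot be told apart, and the part of these cell types in the results that follow was not tested.

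**Figure D1:**
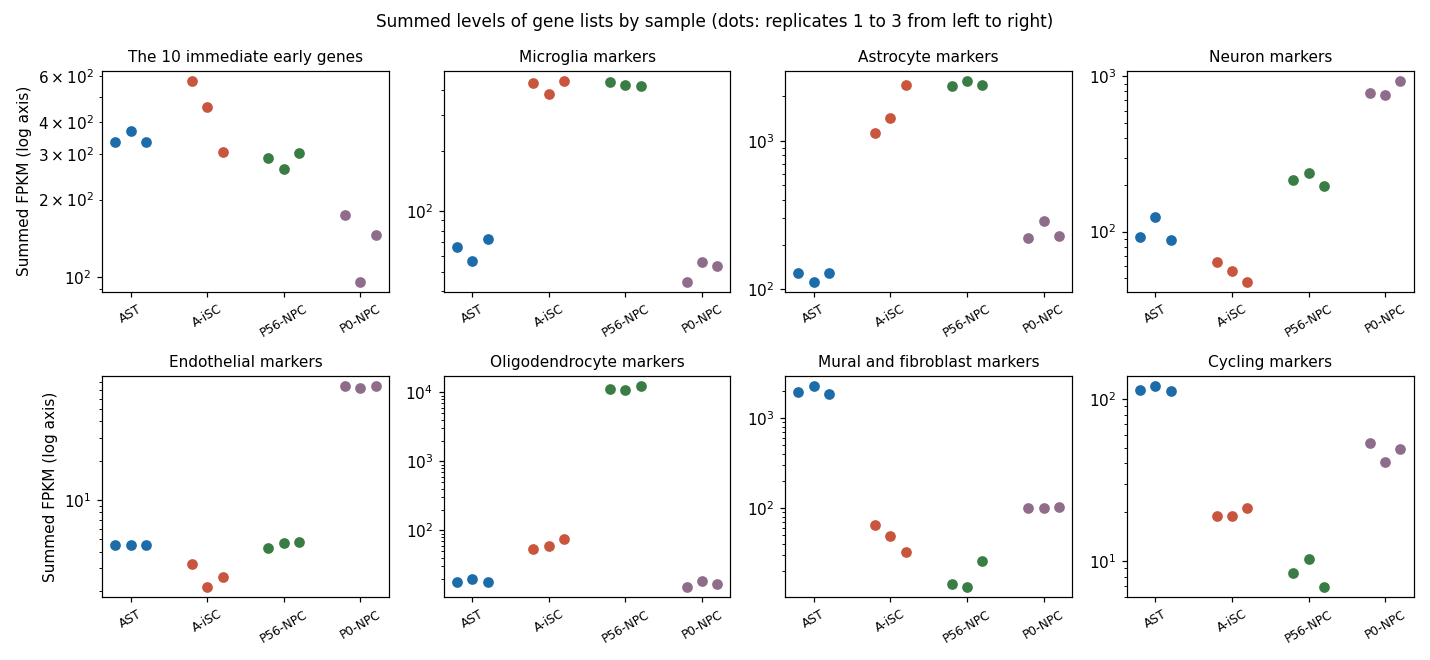
Summed FPKM (log axis) of the 10 immediate early genes and of 7 lists of 6 cell type markers, with a dot for each of the 3 samples of each group. The 10 genes together reached 304 to 577 FPKM in A-iSCs and 96.2 to 174 FPKM in P0-NPCs, the lowest group. Summed microglia markers were high in A-iSCs and P56-NPCs. Summed mural and fibroblast markers were high in ASTs, although Rgs5 and Dcn of that list were under 1 FPKM there.

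Among promoters, those of the 4 genes with the highest group means (Fos, Junb, Dusp1 and Jun) are shown, because these were the most abundant of the 10. The letters are the bases before the RefSeq start site on GRCm38.p6, 5′ to 3′ on the strand of the gene, 250 bases each except for Dusp1, where 47 bases that lie in an annotated exon were left out. The start sites are those of RefSeq and can differ from the ends of the genes in the deposited table. Capitals mark matches to TGACG, the core of the cAMP response element that CREB and ATF factors bind (searched on both strands), to TGACATCA, the element known from the Jun promoter (both strands), to the EGR site GCGNGGGCG (both strands) and to TATAA, the core of a TATA box (strand of the gene only). The full element TGACGTCA contains TGACG on both strands. The windows cover chr4:95052223-95052472 for Jun (minus strand), chr12:85473640-85473889 for Fos (plus strand), chr8:84978749-84978998 for Junb (minus strand) and chr17:26508520-26508722 for Dusp1 (minus strand).
Jun: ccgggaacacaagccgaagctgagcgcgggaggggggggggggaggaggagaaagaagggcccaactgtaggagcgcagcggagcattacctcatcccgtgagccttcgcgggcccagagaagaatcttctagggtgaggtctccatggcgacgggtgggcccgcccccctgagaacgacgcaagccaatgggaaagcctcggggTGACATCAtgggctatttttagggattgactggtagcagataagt
Fos: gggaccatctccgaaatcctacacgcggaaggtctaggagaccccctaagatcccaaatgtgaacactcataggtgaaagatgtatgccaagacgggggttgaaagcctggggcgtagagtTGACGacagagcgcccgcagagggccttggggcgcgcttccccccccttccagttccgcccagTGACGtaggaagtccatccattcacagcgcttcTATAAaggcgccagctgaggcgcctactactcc
Junb: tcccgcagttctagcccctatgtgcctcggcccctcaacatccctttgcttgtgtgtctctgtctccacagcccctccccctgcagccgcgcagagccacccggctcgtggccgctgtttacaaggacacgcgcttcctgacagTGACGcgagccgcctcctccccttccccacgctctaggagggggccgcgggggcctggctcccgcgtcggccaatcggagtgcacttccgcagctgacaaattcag
Dusp1: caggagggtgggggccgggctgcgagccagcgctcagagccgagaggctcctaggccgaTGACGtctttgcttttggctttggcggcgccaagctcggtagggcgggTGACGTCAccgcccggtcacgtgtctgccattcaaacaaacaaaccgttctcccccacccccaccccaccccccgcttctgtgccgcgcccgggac

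Windows were at hand for 7 of the 10 genes, those of Jun, Fos, Fosb, Junb, Atf3, Nr4a1 and Dusp1, and all 250 bases of each were searched, the bases of Dusp1 that are not shown included. TGACG occurred in 6 of these 7 windows, all but that of Jun, against 17.8% of 32851 RefSeq windows of the same length. Counted from the start site, it began at positions -129 and -66 in Fos and at -106 in Junb, and it occurred 4 times in Nr4a1. The full TGACGTCA was in the Dusp1 window alone of the 7 (position -143), with 1.55% of all windows holding it. TGACATCA was found in Jun at -45 (2.93% of all windows), GCGNGGGCG in Fosb and Nr4a1 (4.70%), and TATAA in Fos at -33 (16.0%). TGANTCA, the AP-1 site, was in 0 of the 7 windows (6.75% of all windows), and so was the CArG box, the core of the serum response element (1.47%). These matches describe letters in a window and say nothing about binding in these cells.

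Fos (chr12:85473890-85477273, plus strand) encodes the partner that pairs with JUN proteins to form the AP-1 transcription factor. Its level was 38.1, 42.7 and 39.7 FPKM in AST replicates 1 to 3, and 153, 113 and 82.8 FPKM in the A-iSC replicates. P56-NPCs had 50.1, 43.0 and 52.1 FPKM, and P0-NPCs had 51.8, 12.8 and 35.3 FPKM. Every A-iSC sample was above every sample of the other groups, and the P0-NPC samples were spread across a range that enclosed all ASTs. Fos was 2.89-fold higher in A-iSCs than in ASTs (log2 fold change 1.47 ± 0.22 (SE), adjusted p = 0.00114), 2.40-fold higher than in P56-NPCs (1.21 ± 0.22, adjusted p = 0.00256) and 3.49-fold higher than in P0-NPCs (1.93 ± 0.47, adjusted p = 0.00753). In P56-NPCs Fos was called higher than in ASTs at a log2 fold change of 0.26 ± 0.10 (adjusted p = 0.0388). That call was lost without AST replicate 1 or 3 and without P56-NPC replicate 1 or 3, and the value was -0.07 when samples were scaled by library size alone. P0-NPCs were called different from neither P56-NPCs (adjusted p = 0.159) nor ASTs (adjusted p = 0.340).

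Fosb (chr7:19302696-19310051, minus strand) encodes a second FOS protein, whose shortened form builds up in neurons on repeated stimulation. It was the lowest of Fos, Fosb, Jun and Junb in each group, at 3.14, 3.97 and 2.81 FPKM in ASTs and 2.98, 1.5 and 0.783 FPKM in A-iSCs. P56-NPCs had 4.67, 3.19 and 5.26 FPKM, and P0-NPCs had 2.14, 0.275 and 1.01 FPKM. The order of means was P56-NPC, AST, A-iSC and P0-NPC, and no group in that order was called different from its neighbour, although alternatives called 2 of these pairs. Fosb was called lower in A-iSCs than in ASTs with the replicate block (adjusted p = 0.0223), with limma-voom (0.0398) and without A-iSC replicate 1 (0.00698), and higher in P56-NPCs than in ASTs without P56-NPC replicate 2 (0.0214). Fosb was called higher in P56-NPCs than in P0-NPCs (log2 fold change 1.40 ± 0.31 (SE), adjusted p = 0.00395) and lower in P0-NPCs than in ASTs (-1.09 ± 0.29, adjusted p = 0.00930). It was also lower in A-iSCs than in P56-NPCs (-1.02 ± 0.30, adjusted p = 0.0208), a call that was lost without A-iSC replicate 2 (log2 fold change -0.99), P56-NPC replicate 1 (-0.98) or P56-NPC replicate 3 (-0.90). It was also lost with library size alone, where the value shrank to -0.62 (adjusted p = 0.101), and with no filter (adjusted p = 0.0526).

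Jun (chr4:95049034-95052222, minus strand) encodes c-JUN, the AP-1 subunit that JNK phosphorylates. ASTs had 86.0, 103 and 86.6 FPKM and A-iSCs 81.1, 73.7 and 51.8 FPKM. P56-NPCs had 76.1, 68.3 and 79.0 FPKM and P0-NPCs 36.8, 29.97 and 35.4 FPKM. The P0-NPC samples lay below all others. Apart from P0-NPCs, the group means were within 1.34-fold of each other. The exons of Jun share 232 bases (7.28%) with Junos on the other strand, which stayed at 0.233 to 0.481 FPKM as a group mean. Against P0-NPCs, Jun was 2.70-fold higher in ASTs (log2 fold change of P0-NPCs over ASTs -1.41 ± 0.12 (SE), adjusted p = 1.49e-05), 2.18-fold higher in P56-NPCs (1.11 ± 0.10, adjusted p = 2.13e-05) and 2.02-fold higher in A-iSCs (0.97 ± 0.18, adjusted p = 0.00209). A-iSCs were called different from neither ASTs (-0.43 ± 0.19, adjusted p = 0.0924) nor P56-NPCs (-0.13 ± 0.18, adjusted p = 0.535). The A-iSC and AST samples did not overlap, however, and with all 4 groups in the model the lower level in A-iSCs was called (adjusted p = 0.0297). The lower level in P56-NPCs than in ASTs (-0.30 ± 0.10, adjusted p = 0.0327) was called, and the call was lost without P56-NPC replicate 1 or 2 and under upper-quartile scaling.

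Junb (chr8:84974484-84978718, minus strand) encodes JUNB, an AP-1 subunit that can restrain c-JUN. Its level was 29.3, 42.3 and 31.5 FPKM in ASTs and 134, 107 and 70.9 FPKM in A-iSCs. P56-NPCs had 36.7, 32.0 and 40.4 FPKM and P0-NPCs 9.29, 5.61 and 7.42 FPKM. The A-iSC samples were above all others, the P0-NPC samples below all others, and ASTs and P56-NPCs overlapped. Junb was 3.03-fold higher in A-iSCs than in ASTs (log2 fold change 1.54 ± 0.25 (SE), adjusted p = 0.00181), 2.86-fold higher than in P56-NPCs (1.45 ± 0.23, adjusted p = 0.00136) and 13.98-fold higher than in P0-NPCs (3.61 ± 0.25, adjusted p = 1.20e-05). The difference between ASTs and P56-NPCs was 0.09 ± 0.15 (adjusted p = 0.591). Its exons share 173 bases, 7.52% of their length, with Prdx2 on the other strand, which was at 78.2 to 137 FPKM as a group mean. Since the counting was not stated to use strand, reads from these bases could belong to either gene.

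Atf3 (chr1:191170296-191218039, minus strand) encodes a stress-induced factor that pairs with JUN proteins and mostly represses. Its level was 7.97, 10.4 and 8.70 FPKM in ASTs and 35.4, 33.3 and 21.4 FPKM in A-iSCs. P56-NPCs had 5.03, 4.37 and 5.33 FPKM and P0-NPCs 2.82, 1.63 and 2.29 FPKM. The 4 groups did not overlap and stood in the order A-iSC, AST, P56-NPC and P0-NPC, the only such order among the 10 genes in which all 3 neighbouring pairs were called. How often this happens among all genes was not counted. Atf3 was 3.33-fold higher in A-iSCs than in ASTs (log2 fold change 1.60 ± 0.20 (SE), adjusted p = 0.000524). It was 6.12-fold higher in A-iSCs than in P56-NPCs (2.36 ± 0.19, adjusted p = 4.75e-05) and 13.4-fold higher than in P0-NPCs (3.24 ± 0.22, adjusted p = 9.67e-06). The 2 fresh groups differed from each other by less, with P56-NPCs 2.18-fold above P0-NPCs (0.88 ± 0.14, adjusted p = 0.000703).

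**Figure D2:**
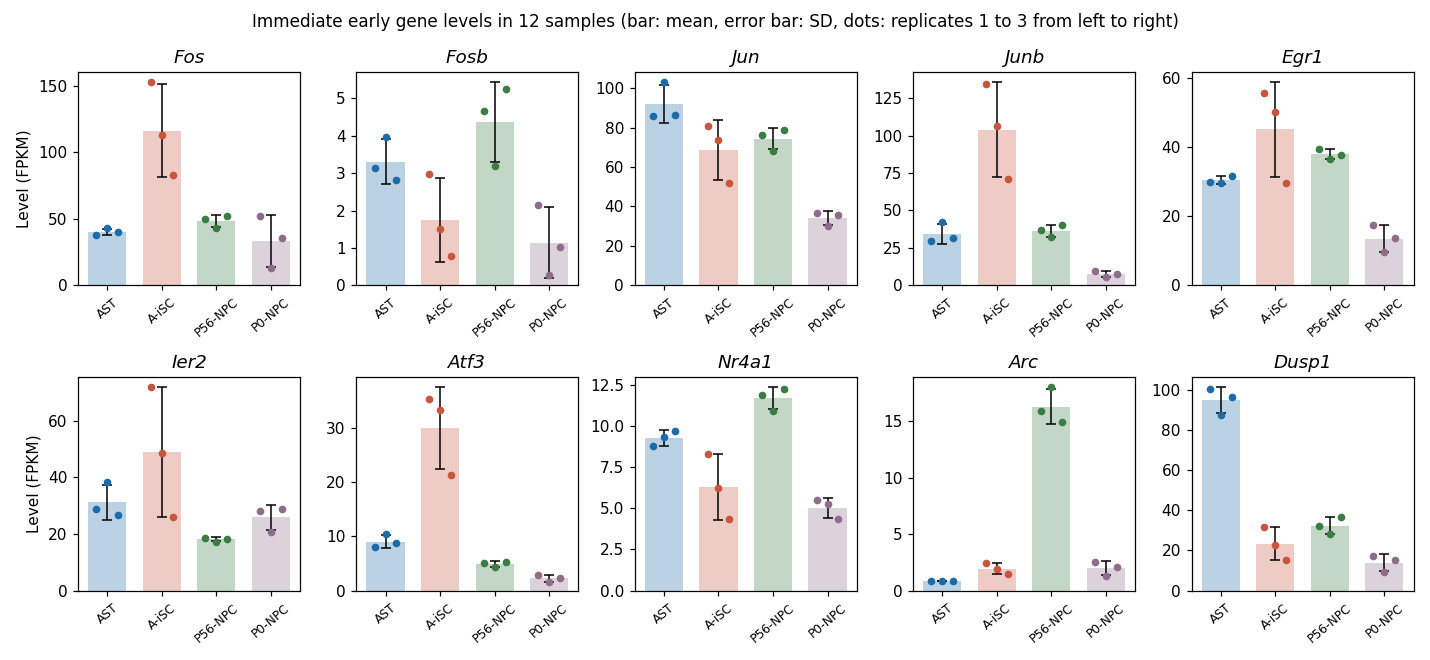
Level in FPKM of each of the 10 immediate early genes in 4 groups of 3 samples, with bars at the mean, error bars of 1 SD and a dot per replicate. Fos, Junb and Atf3 were highest in all 3 A-iSC samples, Arc in all 3 P56-NPC samples (15.0 to 18.0 FPKM) and Dusp1 in all 3 AST samples (87.7 to 100.3 FPKM).

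Egr1 (chr18:34859823-34864984, plus strand) encodes a zinc finger factor that answers to serum and synaptic activity. The ASTs, at 29.8, 29.6 and 31.6 FPKM, and the P56-NPCs, at 39.4, 36.5 and 37.7 FPKM, were each tight. A-iSCs had 55.6, 50.02 and 29.6 FPKM and P0-NPCs 17.4, 9.53 and 13.6 FPKM. A-iSCs thus had the highest mean, 45.1 ± 13.7 FPKM (SD, n = 3), but 1 of its 3 samples was level with the ASTs. The difference between A-iSCs and ASTs was 0.51 ± 0.23 on the log2 scale (adjusted p = 0.0966). Without A-iSC replicate 3 it was 0.78 and was called, and it was also called under upper-quartile scaling (0.72) and scaling by library size (0.72). P0-NPCs were lower than ASTs (-1.15 ± 0.18, adjusted p = 0.000608), than P56-NPCs by 2.80-fold (adjusted p = 0.000166) and than A-iSCs by 3.34-fold (adjusted p = 0.00118). P56-NPCs were above ASTs by 0.31 ± 0.07 (adjusted p = 0.00444), which became -0.02 when samples were scaled by library size alone.

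Ier2 (chr8:84661331-84662854, minus strand) encodes a nuclear protein induced by growth factors. It was at 28.8, 38.2 and 26.7 FPKM in ASTs and at 71.9, 48.8 and 26.1 FPKM in A-iSCs, where replicate 3 fell below all ASTs. P56-NPCs had 18.6, 17.3 and 18.4 FPKM and P0-NPCs 28.1, 20.7 and 28.7 FPKM. Ier2 was the only gene of the 10 whose lowest mean was in P56-NPCs. P56-NPCs were lower than ASTs (log2 fold change -0.74 ± 0.13 (SE), adjusted p = 0.00155), than A-iSCs (by 2.71-fold, adjusted p = 0.0121) and than P0-NPCs (-0.48 ± 0.12, adjusted p = 0.00744). With all 4 groups in the model the difference from P0-NPCs was not called (adjusted p = 0.148). A-iSCs, ASTs and P0-NPCs were not called different from each other, with adjusted p = 0.225 for A-iSCs against ASTs, 0.189 for P0-NPCs against ASTs and 0.0673 for A-iSCs against P0-NPCs. With all 4 groups in the model Ier2 was called higher in A-iSCs than in P0-NPCs (adjusted p = 0.0245), and without A-iSC replicate 3 it was called higher than in both ASTs (0.0111) and P0-NPCs (0.00106).

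Nr4a1 (chr15:101254269-101274795, plus strand) encodes NUR77, an orphan nuclear receptor induced by calcium and cAMP. It was at 8.80, 9.35 and 9.73 FPKM in ASTs and 8.33, 6.23 and 4.35 FPKM in A-iSCs. P56-NPCs had 11.9, 10.95 and 12.3 FPKM and P0-NPCs 5.51, 5.26 and 4.33 FPKM. All P56-NPC samples were above all others, and A-iSCs overlapped P0-NPCs. P56-NPCs exceeded P0-NPCs by 2.33-fold (log2 fold change 1.08 ± 0.09 (SE), adjusted p = 1.88e-05) and A-iSCs by 1.86-fold (-0.83 ± 0.20 for A-iSCs over P56-NPCs, adjusted p = 0.00846). The call against A-iSCs was lost with library size alone (-0.33, adjusted p = 0.158). P0-NPCs were 1.85-fold below ASTs (adjusted p = 0.000157). The margin of P56-NPCs over ASTs (0.30 ± 0.07, adjusted p = 0.00688) became -0.01 with scaling by library size alone. In A-iSCs Nr4a1 was not called against ASTs (-0.53 ± 0.20, adjusted p = 0.0545), although the samples did not overlap. It was called lower with a filter at 5 FPKM (adjusted p = 0.0499), limma-voom (0.0436), all 4 groups in the model (0.0132), the replicate block (0.0417) and without A-iSC replicate 1 (0.0127), and its adjusted p ran up to 0.201 under the others.

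Arc (chr15:74669083-74672570, minus strand) encodes a cytoskeletal protein of synapses that is made after neuronal activity and is used to mark recently active neurons. It was nearly equal in the ASTs, at 0.839, 0.839 and 0.845 FPKM, and was 2.43, 1.90 and 1.46 FPKM in A-iSCs. P56-NPCs had 15.9, 18.0 and 15.0 FPKM, and P0-NPCs had 2.50, 1.29 and 2.08 FPKM. The lowest P56-NPC sample exceeded the highest sample of any other group several-fold. Arc was 19.3-fold higher in P56-NPCs than in ASTs (log2 fold change 3.23 ± 0.08 (SE), adjusted p = 9.10e-08), 8.42-fold higher than in A-iSCs (adjusted p = 8.10e-06) and 8.31-fold higher than in P0-NPCs (adjusted p = 3.25e-06). It also rose 2.30-fold from ASTs to A-iSCs (0.66 ± 0.14, adjusted p = 0.00647) and was 2.33-fold higher in P0-NPCs than in ASTs (0.66 ± 0.15, adjusted p = 0.00451). A-iSCs and P0-NPCs were not called different (-0.0035 ± 0.19, adjusted p = 0.989). Of the neuron markers, Snap25 and Map2 were also higher in P56-NPCs than in P0-NPCs, while Tubb3, Stmn2 and Rbfox3 were lower.

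Dusp1 (chr17:26505590-26562128, minus strand) encodes the phosphatase that switches JNK, p38 and ERK off again, and so belongs to the feedback arm of the response. It was at 100.3, 87.7 and 96.7 FPKM in ASTs and 31.7, 22.9 and 15.2 FPKM in A-iSCs. P56-NPCs had 32.4, 28.1 and 36.7 FPKM and P0-NPCs 17.5, 9.08 and 15.2 FPKM. The ASTs stood above all other samples, and A-iSCs overlapped both NPC groups. Dusp1 fell 4.08-fold from ASTs to A-iSCs (log2 fold change -2.04 ± 0.24 (SE), adjusted p = 0.000394), and was 2.93-fold lower in P56-NPCs (-1.53 ± 0.11, adjusted p = 1.25e-05) and 6.82-fold lower in P0-NPCs (-2.73 ± 0.21, adjusted p = 8.67e-06) than in ASTs. P56-NPCs were 2.33-fold above P0-NPCs (adjusted p = 0.00131). A-iSCs were not called different from P56-NPCs (adjusted p = 0.115) or P0-NPCs (adjusted p = 0.0768). The level in A-iSCs was called higher than in P0-NPCs with all 4 groups in the model (adjusted p = 0.0280), with the replicate block (0.0462) and without A-iSC replicate 3 (0.0117), and lower than in P56-NPCs without A-iSC replicate 1 (-0.75, adjusted p = 0.0202).

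The comparison of A-iSCs with ASTs asks what 5 days as spheres changed. Fos, Junb, Atf3 and Arc rose, Dusp1 fell, and Fosb, Jun, Egr1, Ier2 and Nr4a1 did not pass the test. This is 4 of 10 higher and 1 of 10 lower, where 25.2% of the 14087 genes tested were called higher and 29.6% lower (54.8% in either direction). Of all calls, 46.0% were higher in A-iSCs, and this share was 60.9% under upper-quartile scaling and 60.4% with library size alone, where the 10 genes gave 5 higher and 1 lower under both. Of the AP-1 genes, Fos and Junb rose, while Jun (-0.43, adjusted p = 0.0924) and Fosb (-0.72, adjusted p = 0.0640) were not called, and the genes were not tested against each other. The median log2 fold change of the 10 genes was 0.52, against -0.06 over all genes tested. Summed microglia markers were 383 to 444 FPKM in A-iSCs and 56.3 to 73.0 FPKM in ASTs, and all 6 microglia genes were called higher. Without A-iSC replicate 3, the sample in which each of the 10 genes was lowest, Egr1 and Ier2 were called as well, which gave 6 higher and 1 lower. Without A-iSC replicate 1, where each was highest, Fosb (-1.02, adjusted p = 0.00698) and Nr4a1 (-0.73, adjusted p = 0.0127) were called lower, which gave 4 higher and 3 lower. Limma-voom on the recovered fragments gave 4 higher and 3 lower too.

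More of the other immediate early genes were called lower than higher in the spheres. Among 14 tested genes for other early transcription factors, 1 rose and 9 fell from ASTs to A-iSCs. The largest changes were in Maff (5.64 against 129 FPKM, log2 fold change -4.29 ± 0.14 (SE), adjusted p = 3.54e-06), a small MAF factor, and in Klf4 (-2.24), Klf2 (-1.93) and Csrnp1 (-1.87). Among 22 tested early genes for secreted, signalling and feedback proteins, 2 were higher and 12 lower (3 and 7 under upper-quartile scaling). Ccn1, a matrix protein gene and a classic target of serum through SRF and YAP, was at 92.3 FPKM against 932 FPKM (-3.40 ± 0.29, adjusted p = 7.95e-05). Dusp5, an ERK phosphatase, fell by 2.56 and Dusp4, another of that family, by 1.34 on the log2 scale, while the RNA decay factor Zfp36l1 rose by 1.53. The median log2 fold changes of these lists were -0.85 for the factors and -0.52 for the effectors, of opposite sign to that of the 10 genes.

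Upstream of these genes, 7 of 25 kinases and resident promoter factors rose from ASTs to A-iSCs and 8 fell, shares near those of all genes (25.2% and 29.6%). Under upper-quartile scaling, and with library size alone, 9 were higher and 4 lower. Srf, the serum response factor, was at 8.87 FPKM against 22.4 FPKM (log2 fold change -1.25 ± 0.17 (SE), adjusted p = 0.000691), and its ternary complex partner Elk3 at 12.5 against 29.5 FPKM (-1.17 ± 0.12, adjusted p = 0.000155). The RSK kinase genes went both ways, with Rps6ka2 at -1.15 and Rps6ka1 at 1.13. Of 11 heat shock genes, chaperones known to be induced by handling of cells and tissue, 1 was higher and 6 were lower. Hspd1 (-1.48), Hsp90aa1 (-0.997) and Hspb1 (-0.89) fell, and Hspa1a, at 3.42 against 1.29 FPKM, was higher (0.93, adjusted p = 0.00618).

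The freshly dissociated groups were each compared with ASTs, and all comparisons with ASTs share the AST samples. In P56-NPCs, 4 of the 10 genes were higher than in ASTs (Fos, Egr1, Nr4a1 and Arc) and 4 lower (Jun, Ier2, Atf3 and Dusp1), where 78.9% of 15146 genes were called, 39.1% higher and 39.8% lower. Apart from Arc, the 3 higher genes differed by 0.26 to 0.31 on the log2 scale and all 3 changed sign with scaling by library size alone, which left 1 higher and 4 lower. That scaling moved the share of higher genes among all calls from 49.5% to 37.7%. Mitochondrial genes took 16.5 to 17.6% of the fragments in P56-NPCs and 2.94 to 7.03% in the other samples. In P0-NPCs, Arc was higher than in ASTs and 7 of the 10 genes were lower (Fosb, Jun, Junb, Egr1, Atf3, Nr4a1 and Dusp1), where 79.0% of 15010 genes were called, 38.1% higher and 40.9% lower. The same 1 higher and 7 lower were counted under both other scalings, although these raised the share of higher genes among all calls from 48.2% to 64.2% (upper quartile) and 59.4% (library size).

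Most of the other early genes were lower in the fresh groups than in ASTs. Of 15 factors tested in P56-NPCs against ASTs, 3 were higher and 10 lower, led by Maff (log2 fold change -5.40), Fosl2 (-3.09), Fosl1 (-2.91) and Klf10 (-2.58). In P0-NPCs 2 of 13 were higher and 10 lower, led by Maff (-4.69), Csrnp1 (-3.03) and Fosl1 (-2.87), with Nr4a3, a relative of Nr4a1, higher at 2.81. The effector genes had 4 of 22 higher and 15 lower in P56-NPCs, and 6 of 23 higher and 16 lower in P0-NPCs. Ccn1 (-5.62 in P56-NPCs and -5.68 in P0-NPCs), Dusp5 (-4.66 and -4.39) and the prostaglandin synthase gene Ptgs2 (-4.43 in both) were far lower in both fresh groups. Of the heat shock genes, 9 of 11 were lower in P56-NPCs and 8 of 11 in P0-NPCs, with the rest not called, while upper-quartile scaling gave 2 higher and 6 lower in P0-NPCs. Hspb1 was at 11.4 and 4.12 FPKM in the fresh groups against 118 FPKM in ASTs.

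**Figure D3:**
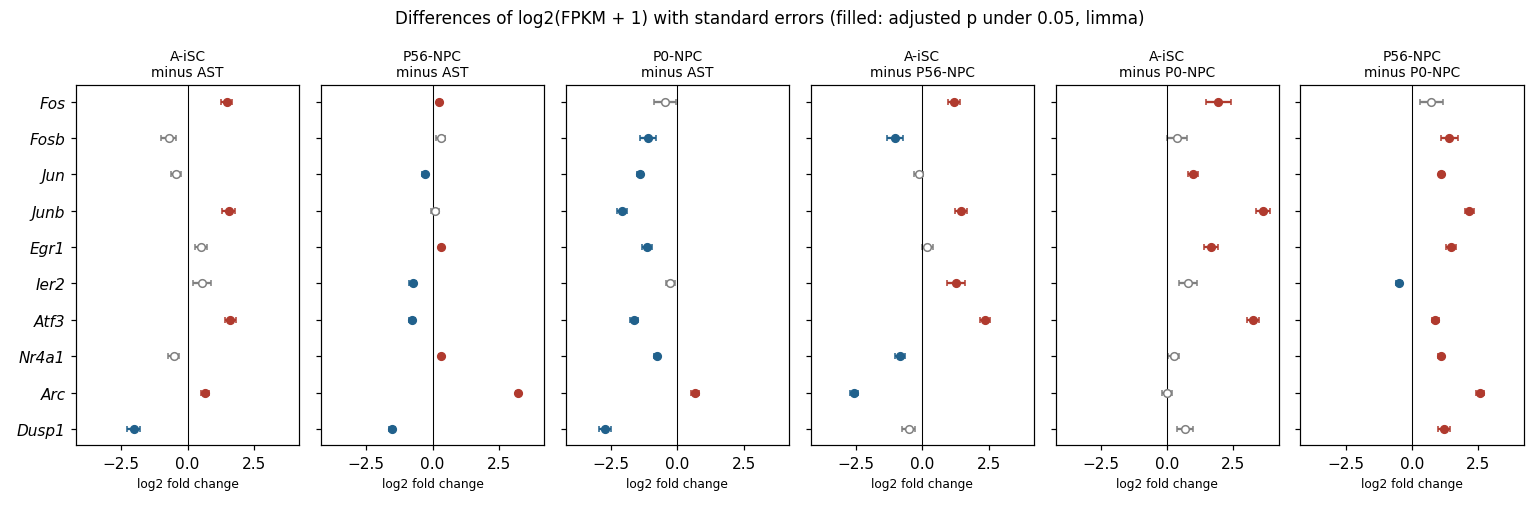
Differences of log2(FPKM + 1) between group means for the 10 immediate early genes in the 6 pairwise comparisons, with standard errors, filled where the adjusted p was under 0.05 (limma). The widest differences were those of Junb (3.61) and Atf3 (3.24) in A-iSCs minus P0-NPCs and of Arc (3.23) in P56-NPCs minus ASTs.

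A-iSCs were set against each precursor preparation, with the A-iSC samples shared. Against P56-NPCs, Fos, Junb, Ier2 and Atf3 were higher in A-iSCs and Fosb, Nr4a1 and Arc lower, where 61.0% of 15044 genes were called, 30.1% higher and 30.9% lower. With library size alone the split was 5 higher and 1 lower, and 74.5% of all calls were higher in A-iSCs in place of 49.4%. Against P0-NPCs, Fos, Jun, Junb, Egr1 and Atf3 were higher in A-iSCs and 0 of the 10 lower at the adjusted threshold or at an unadjusted p under 0.05, where 65.1% of 15170 genes were called, 31.5% higher and 33.6% lower. Leaving out A-iSC replicate 3 raised the count to 8 higher and 0 lower, with Ier2, Nr4a1 and Dusp1 added. Limma-voom on the recovered fragments also gave 5 higher and 0 lower against P0-NPCs.

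Among the other early factors, 9 of 16 were higher and 3 lower in A-iSCs than in P56-NPCs, and 7 of 14 higher and 2 lower than in P0-NPCs. Of all genes tested, 30.1% were higher and 30.9% lower against P56-NPCs, and 31.5% and 33.6% against P0-NPCs. Myc (14.1 against 2.26 FPKM, log2 fold change 2.20) and Fosl2 (2.04) led the genes above P56-NPCs, while Egr4 (-2.24) and Egr3 (-2.04), relatives of Egr1 tied to neuronal activity, were lower. Against P0-NPCs, Nr4a3 was lower (-2.78) and Btg2 (1.45), Fosl2 (1.30) and Npas4 (1.18) were higher. Of the effectors, 14 of 22 were higher and 5 lower than in P56-NPCs, and 13 of 23 higher and 6 lower than in P0-NPCs. Ier3, Gadd45b and Ptgs2 were higher in A-iSCs than in both, with Ier3 at 62.6 FPKM against 4.72 and 3.74 FPKM. Of the heat shock genes, 6 of 11 were higher and 2 lower against P56-NPCs, and 5 higher and 3 lower against P0-NPCs (3 and 5 under upper-quartile scaling). With library size alone, the counts against P56-NPCs were 11 higher and 2 lower for the factors, 15 and 2 for the effectors and 9 and 0 for the heat shock genes. Under that scaling 8329 of all 14895 genes tested were higher in A-iSCs and 2857 lower.

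The 2 fresh groups were compared with each other. They differed in brain region, age and preparation of the suspension, and these cannot be told apart. Fosb, Jun, Junb, Egr1, Atf3, Nr4a1, Arc and Dusp1 were higher in P56-NPCs than in P0-NPCs, Ier2 was lower, and Fos did not pass the test (log2 fold change 0.72 ± 0.43 (SE), adjusted p = 0.159). That is 8 of 10 higher and 1 lower, where 78.8% of 15394 genes were called, 39.7% higher and 39.0% lower. The count was 8 and 1 under both other scalings, while the share of higher genes among all calls went from 50.4% to 39.7% (upper quartile) and 26.7% (library size). The median of the 10 genes was 1.15, against 0.01 over all genes tested. Without P0-NPC replicate 1, Fos was called too, at 1.14. Summed oligodendrocyte, astrocyte and microglia markers were higher in P56-NPCs and endothelial markers in P0-NPCs, while the 6 neuron markers were split. All 6 cycling markers, and 4 of the 5 mural and fibroblast markers tested, were called lower in P56-NPCs.

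For the other lists the shares of all genes are again 39.7% higher and 39.0% lower, and several counts lie near them. Of 14 factors tested, 4 were higher and 6 lower in P56-NPCs, and of 22 effectors 7 were higher and 10 lower. Egr3 (6.08 against 0.539 FPKM, log2 fold change 2.20) and Egr4 (4.45 against 0.209 FPKM, 2.17) were higher in P56-NPCs, as Egr1 and Arc were. Nr4a3 (1.58 against 18.2 FPKM, -2.89) and Klf10 (-2.07) were lower, Nr4a3 thus opposite to its relative Nr4a1. Dusp4 (-2.99) and Plk2 (-2.35) were lower as well, and Rhob (1.85) was higher. With library size alone the effectors gave 3 higher and 13 lower. Of the upstream genes 7 of 25 were higher and 9 lower, with Mapk8, the gene for JNK1, at 2.10 against 13.7 FPKM (-2.24) and Map2k1, the gene for MEK1, at 36.5 against 8.40 FPKM (2.002). Their counts were 5 higher and 13 lower under upper-quartile scaling and 4 higher and 19 lower with library size alone. Heat shock genes split into 3 higher and 5 lower of 11.

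**Figure D4:**
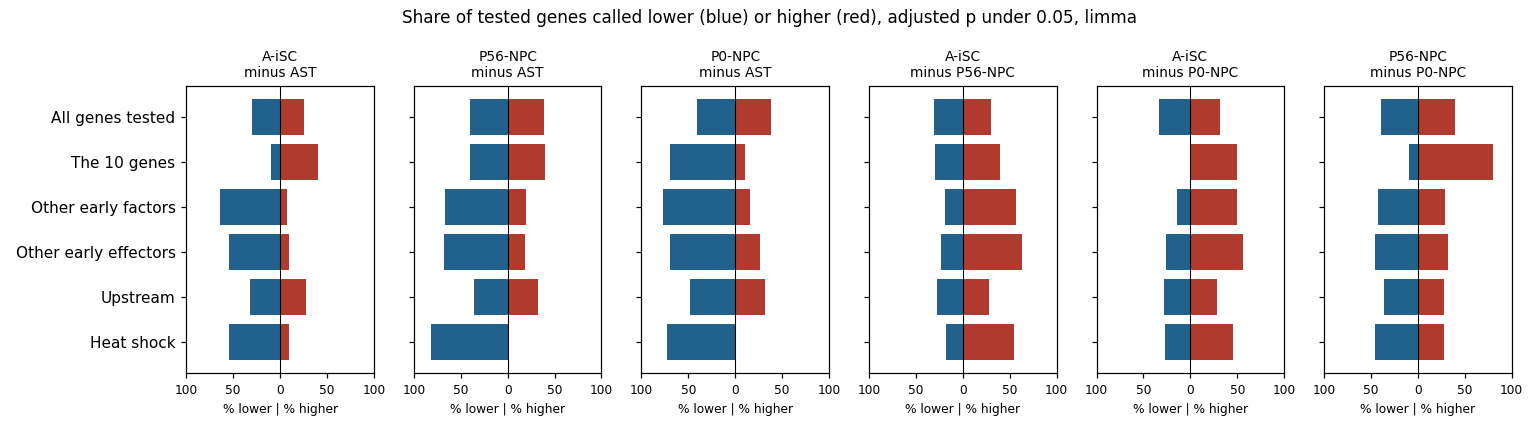
Percent of tested genes called lower (blue, to the left) or higher (red, to the right) in each pairwise comparison at an adjusted p under 0.05 (limma), for the 10 immediate early genes, the other early factors and effectors, the upstream genes, the heat shock genes and all genes tested. In A-iSCs minus ASTs the 10 genes had 4 higher and 1 lower, while the other early factors had 1 higher and 9 lower of 14.

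The 2 cultured groups together were set against the 2 fresh groups in a model of all 12 samples. Fos, Jun, Junb, Egr1, Ier2, Atf3 and Dusp1 were higher in the cultured groups, Arc was lower, and Fosb (log2 fold change 0.04, adjusted p = 0.896) and Nr4a1 (-0.03, adjusted p = 0.825) did not pass the test. This gave 7 of 10 higher and 1 lower, where 76.1% of 16568 genes were called, 37.6% higher and 38.5% lower. The largest differences were 2.001 ± 0.13 (SE) for Atf3 (adjusted p = 5.22e-08), 1.76 ± 0.16 for Junb (adjusted p = 1.05e-06), -1.61 ± 0.11 for Arc (adjusted p = 7.00e-08) and 1.11 ± 0.18 for Dusp1 (adjusted p = 0.000131). The averages hide unlike parts. Fos was higher in the cultured groups through A-iSCs, with 116 ± 35.1 FPKM (SD, n = 3), while ASTs (40.2 ± 2.34 FPKM) lay below P56-NPCs (48.4 ± 4.80 FPKM). Dusp1 was higher through ASTs, with 94.9 ± 6.49 FPKM (SD, n = 3), while A-iSCs (23.3 ± 8.24 FPKM) lay below P56-NPCs (32.4 ± 4.25 FPKM). Atf3 alone of the 10 had every cultured sample above every fresh sample, and the share of all genes that do so was not counted.

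In the same comparison, 11 of 16 other early factors were higher in the cultured groups and 4 lower, and 14 of 23 effectors were higher and 6 lower. Maff (log2 fold change 2.90), Fosl2 (2.19) and Fosl1 (1.98) led the factors, and Ptgs2 (4.03), Ccn1 (3.95), Ier3 (3.902) and Gadd45b (3.60) the effectors. Of the heat shock genes 7 of 11 were higher and 1 lower, led by Hspb1, which was at 91.4 FPKM in the cultured and 7.76 FPKM in the fresh groups (3.44 ± 0.17 (SE), adjusted p = 4.71e-09). Of the upstream genes 10 of 25 were higher and 5 lower, with Elk3 (2.10) and the CREB coactivator gene Crtc1 (-1.99) at the ends, but upper-quartile scaling turned the split to 7 higher and 11 lower.

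The samples of a group were then compared gene by gene. In A-iSCs all 10 were highest in replicate 1 and lowest in replicate 3, a pattern shown by 26.6% of the 13207 genes at 1 FPKM or more in that group. The ratio of replicate 1 to replicate 3 ran from 1.56 (Jun) to 3.81 (Fosb) with a median of 1.89, and its median over all those genes was 1.0. All 10 kept this pattern under upper-quartile scaling and with library size alone. In the same samples, summed astrocyte markers were 1134, 1416 and 2384 FPKM in replicates 1 to 3 and mural and fibroblast markers 65.3, 49.1 and 32.1 FPKM, while microglia markers were 430, 383 and 444 FPKM. Mitochondrial genes took 7.03, 5.49 and 3.05% of their fragments. The part of these cells and of the mitochondrial share in the result was not tested.

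P0-NPCs differed in the same manner between samples. Replicate 1 was highest for 9 of the 10 genes and replicate 2 lowest for 9, and both held together for 8 genes, against 14.1% of 13720 genes. Fosb fell furthest between these samples (7.79-fold), followed by Fos (4.06-fold), while Nr4a1 differed by 1.048-fold. In P56-NPCs, replicate 2 was lowest for 9 of the 10, all but Arc, where 34.0% of 13862 genes were lowest in that sample (46.7% with library size alone and 49.6% under upper-quartile scaling). The ratios there were small, with replicate 3 over replicate 2 at a median of 1.19. In ASTs replicate 2 was highest for 6 genes, Fos, Jun and Junb among them, and lowest for 3, Dusp1 among them, against 44.5% and 44.1% of 12502 genes. Under upper-quartile scaling it was highest for 8 and lowest for 1, against 54.3% and 34.4%. The coefficients of variation of the 10 genes ran from 0.452% to 20.2% in ASTs and 3.87% to 24.3% in P56-NPCs, against 22.1% to 64.0% in A-iSCs and 10.6% to 82.3% in P0-NPCs. After the group means were subtracted, the 45 pairs of the 10 genes were all positively correlated over the 12 libraries (Pearson r from 0.37 to 0.98, median 0.82), a description over points that share their libraries. No such correlations were computed for pairs of other genes, so these values cannot tell whether the 10 genes differ from others in this.

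**Figure D5:**
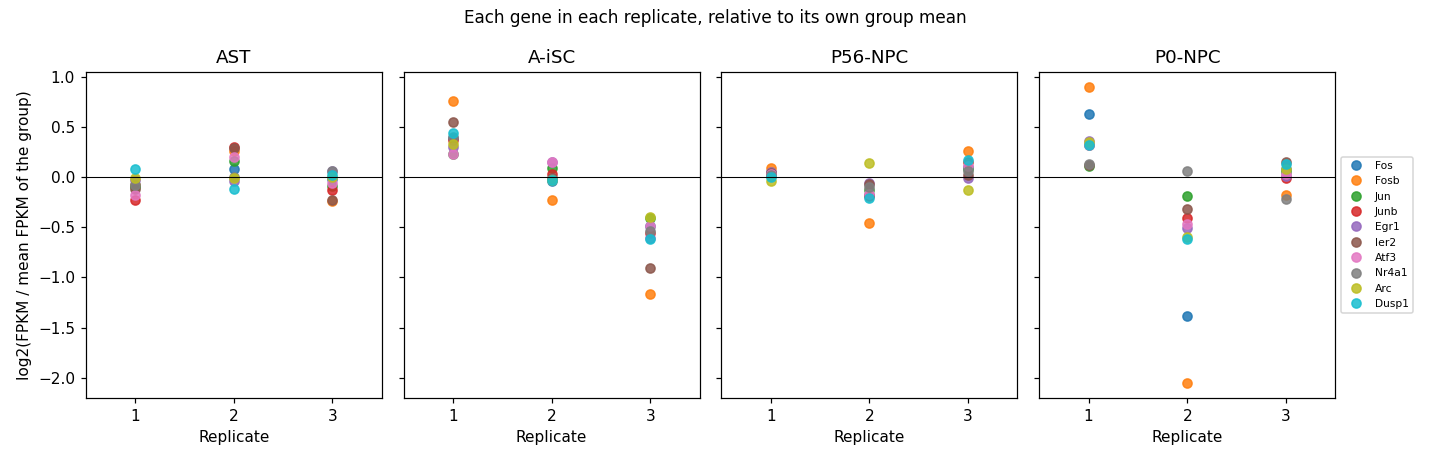
Level of each of the 10 genes in each replicate relative to its own group mean, as log2(FPKM / mean FPKM), with a panel per group and a colour per gene. In A-iSCs all 10 points of replicate 1 lie above 0 and all 10 of replicate 3 below 0, and in P0-NPCs Fosb and Fos lie lowest in replicate 2.

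The genes whose pattern was most like the mean of the 10 were sought among 16568 genes over the 12 libraries, by Pearson correlation of log2(FPKM + 1). Of the 10 themselves, Egr1 followed their mean most closely (r = 0.97), then Jun (0.92) and Junb (0.89), and Arc least (0.25). Among protein-coding genes outside the 10, Ccl4, a chemokine gene of microglia and macrophages, came nearest (r = 0.97), at 9.99 FPKM in ASTs, 17.9 in A-iSCs, 12.6 in P56-NPCs and 0.549 in P0-NPCs. Next were Pnpla2 (0.97), which encodes a triglyceride lipase, Grina (0.97) and Zfp36 (0.96), itself an immediate early gene for an RNA decay factor, at 32.3 FPKM in A-iSCs and 6.68 FPKM in P0-NPCs. Chek2, G6pc3, Tmc6, Optn, Iscu and Map3k11 completed the 10 nearest, with r down to 0.94. These correlations are descriptions over samples that fall into 4 groups.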

How the data were processed

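Total RNA of 12 samples was made into libraries with a NEBNext Ultra kit. The authors deposited 1 table of 55862 genes with 12 columns of FPKM, whose unit is inferred: multiplied by gene length, the values of a sample were multiples of the same step (within 0.02 fragments for 100% of values under 50 fragments). The library size implied by that step was 0.744 to 1.22 times the fragments counted, so the values had been scaled per sample by a method that is not given in the sources used here. The submitters' processing notes list Bowtie 0.12.2 and mm8 with no role, while 54899 of the 55154 genes also in GENCODE M21 had its GRCm38 position, as did 9 of the 10 genes (Ier2 differed at its end). The counting tool, its strand setting and the annotation release are not given in the sources used here.

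Columns were matched to groups by sample name. limma 3.58.1 in R 4.3.3 (lmFit, eBayes with trend) was run on log2(FPKM + 1) for each pair of groups and, in a model of 4 groups, for cultured against fresh groups, over genes with a mean of at least 1 FPKM in at least 1 compared group, with Benjamini-Hochberg adjustment over all of them. On simulated data for A-iSCs against ASTs it called 70 of 90 genes changed 2-fold, 93 of 93 changed 4-fold and 29 unchanged genes among 14497. A floor of 3 fragments was 0.103 to 0.187 FPKM for a gene of 1 kilobase, counting error only. Alternatives were a pseudocount of 0.1, no filter, a filter at 5 FPKM, upper-quartile scaling, library size alone, the replicate number as a block, limma-voom on recovered fragments, all 4 groups in the model, an adjusted p under 0.01, a log2 fold change beyond 1, and leaving out each sample. The 10 genes, the other lists and the tests were chosen with earlier results of these data known. The text names all 10 genes, up to 4 called genes with the largest change of each other list in a comparison, and the 10 protein-coding genes nearest to the mean pattern. Others were named after their values were seen. A marker gene of the neural stem list, and the sum of that list, are not reported here. Python 3.11.15 with numpy 2.4.6, pandas 2.3.3 and matplotlib 3.10.9 was used for levels, motifs and figures. Promoter sequences are from RefSeq.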

Additional observations from a re-analysis of the deposited data

How the results depend on the processing

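Of 50 calls of the 10 genes over the 7 comparisons, 43 kept direction and threshold under each change of pseudocount, filter, scaling, model or samples that could be computed for them. The stricter thresholds, an adjusted p under 0.01 and a log2 fold change beyond 1, are not in that count. The other 7 were Fos, Jun, Egr1 and Nr4a1 in P56-NPCs against ASTs, Fosb and Nr4a1 in A-iSCs against P56-NPCs, and Ier2 in P56-NPCs against P0-NPCs. The number of genes called moved by over 1.5 times in few cases. For P56-NPCs against ASTs it went from 8 to 5 with library size alone, 4 with all 4 groups in the model and 2 beyond a log2 fold change of 1, and for cultured against fresh from 8 to 4 beyond that fold. With samples left out in turn, the counts ran from 5 to 7 for A-iSCs against ASTs, 6 to 8 for P56-NPCs against ASTs, 6 to 8 for A-iSCs against P56-NPCs, 5 to 8 for A-iSCs against P0-NPCs and 9 to 10 for P56-NPCs against P0-NPCs, and stayed at 8 for the others. The cause was not tested. Upper-quartile scaling moved the median log2 fold change of all genes from -0.06 to 0.13 for A-iSCs against ASTs and from -0.07 to 0.32 for P0-NPCs against ASTs, and library size alone moved it from -0.03 to -0.34 for P56-NPCs against ASTs, from 0.03 to 0.49 for A-iSCs against P56-NPCs and from 0.01 to -0.53 for P56-NPCs against P0-NPCs.

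Signs changed as follows. With library size alone, P56-NPCs against ASTs gave -0.0740 for Fos, -0.238 for Junb, -0.0213 for Egr1 and -0.00902 for Nr4a1. With that scaling, Jun (0.42) and Dusp1 (0.0266) in A-iSCs against P56-NPCs, Ier2 (0.0187) in P0-NPCs against ASTs and Nr4a1 (0.0966) in cultured against fresh also turned. Upper-quartile scaling turned Ier2 in P0-NPCs against ASTs (0.14) and Fosb in cultured against fresh (-0.0706). Arc in A-iSCs against P0-NPCs was 0.00198 with a pseudocount of 0.1 and 0.00364 with limma-voom. Over samples left out in turn, values crossed 0 for Junb in P56-NPCs against ASTs (-0.00930 to 0.25), Fos in P0-NPCs against ASTs (-0.88 to 0.0918), Jun in A-iSCs against P56-NPCs (-0.26 to 0.0559), Arc in A-iSCs against P0-NPCs (-0.18 to 0.13), and Fosb (-0.13 to 0.20) and Nr4a1 (-0.13 to 0.0737) in cultured against fresh, none of which had been called.

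Same-numbered samples of different groups did not regularly deviate together (correlations from -0.38 to 0.43 over 18 pairs), and the replicate numbers were not taken as a pairing. Between ASTs and A-iSCs the correlations were -0.378, 0.335 and 0.427 for numbers 1, 2 and 3. So few samples cannot exclude a pairing there. With the replicate block, 7 genes were called in A-iSCs against ASTs (Fosb at an adjusted p of 0.0223 and Nr4a1 at 0.0417 were added), 6 in P56-NPCs against ASTs (Fos at 0.0890 and Jun at 0.0839 were lost) and 6 in A-iSCs against P0-NPCs (Dusp1 at 0.0462 was added).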

Other observations

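The values of some relatives of the 10 genes follow, picked after they were seen and with no test of the difference between relatives. The AP-1 genes Fosl1 and Fosl2 were lower in A-iSCs than in ASTs (log2 fold changes of -1.81 and -1.05), where Fos and Junb were higher, and Jund was at 4.39 against 4.98 FPKM (-0.15, adjusted p = 0.239 by limma, not called). Of the NR4A receptors, Nr4a2 was higher in A-iSCs than in ASTs (2.77 against 1.22 FPKM, 0.75, adjusted p = 0.00998 by limma), and Nr4a1 had -0.53 (adjusted p = 0.0545), which did not pass the test. Of the EGR genes, Egr2 was listed at 0 in all 12 libraries, and Egr3 and Egr4 reached a mean of 1 FPKM in P56-NPCs alone. Socs3, a feedback inhibitor of cytokine signalling, was the other effector besides Zfp36l1 that was higher in A-iSCs than in ASTs (30.2 against 12.5 FPKM, 1.20, adjusted p = 0.000374 by limma).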
